A study of Mus musculus with 3 samples.

Results

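Among the EpCAM-sorted small-intestinal cells of a mouse with *Apc* deleted from Lgr5+ stem cells, 331 cell barcodes carried a large share of *Wfdc18* transcripts together with transcripts of Wnt pathway antagonists. These *Wfdc18*-high adenoma barcodes, called members here, were 331 of 10864 barcodes kept in the LApc library, a share of 3.05% with an exact binomial 95% interval of 2.73 to 3.39%. They were 331 of 42055 barcodes in the whole series. A barcode was kept when it held 500 or more genes and at most 20% of its unique molecular identifiers (UMIs, 1 per captured transcript) came from mitochondrial genes. A kept barcode was a member when *Wfdc18* made up at least 0.12% of its UMIs, when *Ifitm1*, *Nkd1* and *Notum* summed to 3 UMIs or more, when *Defa24* was under 0.5% and when *Tff3* was under 2%. The main comparison class was the 473 LApc barcodes with 3 or more summed UMIs of *Sox17* and *Msx1* and with *Wfdc18* under 0.12%, called *Sox17*/*Msx1* barcodes. Since the members were chosen by these values, *Wfdc18*, *Ifitm1*, *Nkd1*, *Notum*, *Defa24*, *Tff3*, *Sox17* and *Msx1* are described without weight, and every level below is a description without a test.

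Single-cell RNA sequencing was done on sorted EpCAM+ epithelial cells of C57BL/6 mice that, at 7 to 8 weeks of age, were given 2 doses of 2 mg tamoxifen, with 1 library from each of 3 genotypes. The LApc mouse (Lgr5-CreERT2;*Apc* fl/fl) was analysed on day 29 after tamoxifen, and the LApcL mouse, which carried the same alleles and also *Lef1* fl/fl, on day 21 like the WT mouse. Per the paper, the LApc and LApcL mice were taken when they met euthanasia criteria. The Lgr5-EGFP-IRES-CreERT2 allele confines Cre activity to Lgr5+ stem cells and their descendants, so each recombined library mixes recombined and unrecombined epithelium. With 1 library per genotype, genotype, mouse, library and day cannot be told apart, and no p-value was computed. All intervals below are exact 95% intervals that cover counting error only. *Apc* was measured at 16.7 CPM (UMIs of the gene per 1e6 UMIs of the class) over the kept WT barcodes, and at 24.2 CPM in those of LApc and 32.6 in those of LApcL; *Lef1* stood at 0.107, 4.14 and 3.03 CPM. In the *Sox17*/*Msx1* barcodes, *Lef1* stood at 16.3 CPM in the library labelled LApc and 3.47 CPM in the library labelled LApcL. The 3′ tags counted here do not read the loss of a floxed exon, so neither deletion was checked by them.

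APC holds β-catenin at a low level, and its loss lets β-catenin and Tcf/Lef factors drive their targets without a Wnt ligand, the usual first step of an intestinal adenoma. Among those targets are inhibitors that act back on the pathway: *Nkd1* binds Dishevelled in the cytoplasm, *Notum* is a secreted enzyme that removes the lipid of Wnt ligands, and *Wif1* binds Wnt ligands outside the cell. *Wfdc18* encodes a small secreted protein of the whey acidic protein four-disulfide core family. *Lcn2* encodes lipocalin 2, which takes up bacterial iron carriers, *Lrg1* encodes a secreted leucine-rich glycoprotein of the acute phase, and *Vim* encodes vimentin, an intermediate filament of mesenchymal cells.

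On the mm10 (GRCm38) genome, GENCODE places *Wfdc18* on the plus strand of chromosome 11 from 83709015 to 83711348, *Lcn2* on the minus strand of chromosome 2 from 32384633 to 32388252 and *Lrg1* on the minus strand of chromosome 17 from 56119678 to 56122001. Their promoters are shown because *Wfdc18* chose the members and *Lrg1* and *Lcn2* are the markers that stood furthest above the *Sox17*/*Msx1* barcodes. Each run holds 250 bases before and 50 bases after the RefSeq start in GRCm38.p6, 5′ to 3′ on the strand of the gene, at chr11:83708754-83709053, chr2:32387690-32387989 and chr17:56121897-56122196. Capitals mark matches on either strand to the Tcf/Lef core CTTTGA or to the NF-kB-type pattern, which is GGG, any NNNN and TCC in a row.
Wfdc18: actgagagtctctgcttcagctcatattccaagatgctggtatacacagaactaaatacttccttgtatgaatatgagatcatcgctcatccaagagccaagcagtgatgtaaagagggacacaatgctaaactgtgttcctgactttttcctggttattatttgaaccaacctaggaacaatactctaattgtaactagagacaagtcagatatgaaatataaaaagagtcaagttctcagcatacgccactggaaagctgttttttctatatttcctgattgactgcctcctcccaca
Lcn2: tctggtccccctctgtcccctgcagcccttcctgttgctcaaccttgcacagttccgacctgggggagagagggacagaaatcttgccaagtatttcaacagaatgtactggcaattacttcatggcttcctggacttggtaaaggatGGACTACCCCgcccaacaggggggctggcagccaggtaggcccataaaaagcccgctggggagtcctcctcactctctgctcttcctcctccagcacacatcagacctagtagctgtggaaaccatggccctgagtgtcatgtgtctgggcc
Lrg1: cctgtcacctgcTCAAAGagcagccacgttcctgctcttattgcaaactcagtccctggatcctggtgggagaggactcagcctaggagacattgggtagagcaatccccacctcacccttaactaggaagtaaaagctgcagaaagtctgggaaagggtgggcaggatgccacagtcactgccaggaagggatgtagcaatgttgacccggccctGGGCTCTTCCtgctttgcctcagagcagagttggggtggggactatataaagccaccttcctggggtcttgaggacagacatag
The *Wfdc18* window held neither pattern, the *Lcn2* window held the NF-kB-type pattern 102 bases before the start, and the *Lrg1* window held the Tcf/Lef core 238 bases and the NF-kB-type pattern 34 bases before the start. Of 27025 mouse promoters of the same length, 16.2% held the Tcf/Lef core and 19.0% the NF-kB-type pattern, so matches of these short patterns are common. Among the 12 genes named below as highest in the members, 8 had a promoter in the table, and 2 of these held the first pattern and 3 the second.

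The *Wfdc18* share of the members ran from 0.121% of UMIs through a median of 0.394% to 4.97%. The members were the upper part of a continuous range, since 34 of them lay between 0.12 and 0.15%, and 41 further barcodes that met every other limit lay between 0.09 and 0.12%. Just inside the limit the level was 748 CPM for *Lcn2* and 218 CPM for *Lrg1*, and just outside it 239 CPM and 178 CPM. In all, 402 kept barcodes reached the *Wfdc18* limit, 355 of these also had the antagonist sum, and 24 of those were dropped by *Defa24* or *Tff3*. The antagonist sum had a median of 17 UMIs in the members. Of the members, 39 held 3 or more UMIs of *Sox17* and *Msx1* and 210 held none.

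**Figure D1:**
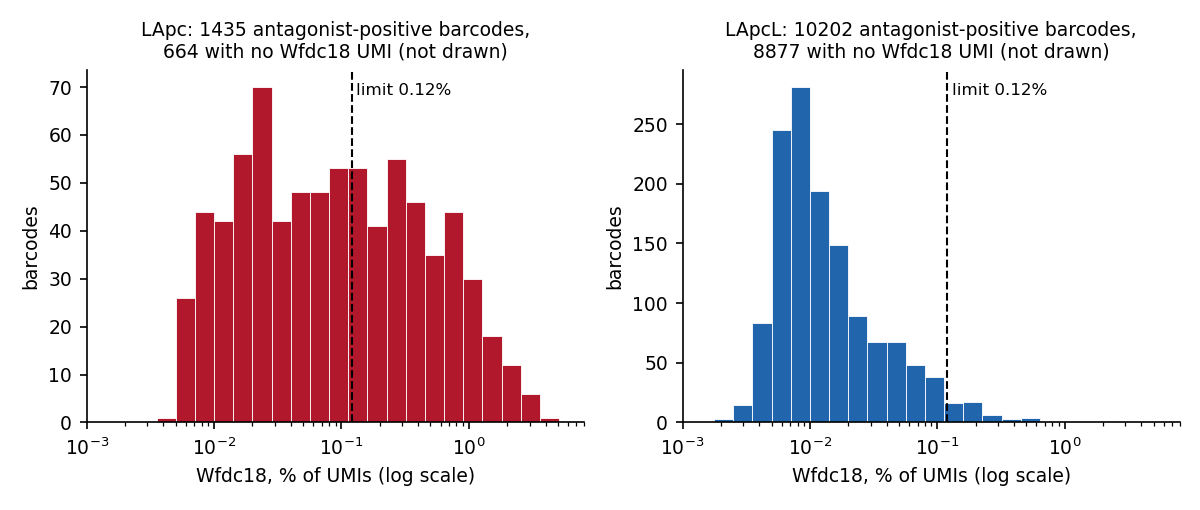
Number of barcodes (y axis) by the *Wfdc18* share of UMIs (x axis, log scale) among barcodes that met the antagonist, *Defa24* and *Tff3* limits, in the LApc library (left) and the LApcL library (right), with the limit of 0.12% dashed. In LApc, 331 of 1435 such barcodes lay at or above the limit, and in LApcL 41 of 10202.

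The same rule found 0 of 11391 kept barcodes in WT, where the exact interval reaches up to 0.0324%, and 41 of 16972 in LApcL. Among barcodes that met the antagonist, *Defa24* and *Tff3* limits, the share at or above the *Wfdc18* limit was 23.1% (20.9 to 25.3) of 1435 in LApc and 0.402% (0.289 to 0.545) of 10202 in LApcL. Over all kept barcodes, the *Wfdc18* level was 288 CPM for LApc, 23.6 CPM for LApcL and 1.78 CPM for WT. These libraries differ in day and mouse as well as in *Lef1*.

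The members held 2388 to 25513 UMIs with a median of 8066, against medians of 9595 in the *Sox17*/*Msx1* barcodes and 7026 in LApc crypt barcodes, a second comparison class of 867 barcodes defined further on. Mitochondrial genes took a median of 3.07, 3.35 and 4.99% of UMIs in these classes. Of the members, 19 (5.74%) were among the 1148 LApc barcodes with the highest doublet scores, against 11.4% of the *Sox17*/*Msx1* barcodes, and they were kept in. The LApc and LApcL libraries shared 318 barcodes, 12 of them members, and the LApc and WT libraries shared 214, 4 of them members. *Epcam* was detected in 100% of the members and *Krt8* in 99.4% after each barcode was thinned to 3000 UMIs.

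The markers of other cells were counted in the members. The T and NK cell list gave 114 UMIs in 13 members, with 62 of *Gzma*, and a summed level of 0 to 12789 CPM per member. *Ptprc*, the pan-leukocyte marker, gave 3 UMIs in all members together. Of 16 stromal and endothelial markers, 8 were at 0, among them *Col1a1*, *Col1a2*, *Col3a1*, *Lum* and *Kdr*. The stromal and endothelial list summed to 271 UMIs in 108 members, 97.1 CPM against 49.9 CPM in the *Sox17*/*Msx1* barcodes. Of these, 153 UMIs were of *Rgs5*, a pericyte gene, at 54.8 CPM in the members and 4.38 CPM in the *Sox17*/*Msx1* barcodes, and 43.8% of its member UMIs lay in 5 barcodes. The summed enterocyte markers ran from 703 to 143581 CPM per member with a median of 2859 CPM, and the enteroendocrine markers from 0 to 161865 CPM with a median of 203 CPM. Of 16 myeloid and B cell markers, 9 were at 0 in the members, and of 5 red cell markers 4 were. Limits on other cells' transcripts were set at 3 or more T and NK UMIs, 1% or more enteroendocrine or 2% or more enterocyte UMIs. Past these limits were 7 members, 19 *Sox17*/*Msx1* barcodes and 54 crypt barcodes. Without them, *Lcn2* stood at 515 CPM, *Lrg1* at 519.6 CPM and *Vim* at 219 CPM in the members. The remaining barcodes still held such transcripts below the limits.

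The 4 marker genes that the rule did not use were each higher in the members than in the *Sox17*/*Msx1* barcodes. *Lrg1* stood at 514 CPM (488 to 542) against 13.4 CPM, *Lcn2* at 518 CPM (491 to 545) against 19.0 CPM, *Wif1* at 152 CPM against 35.5 CPM and *Vim* at 215 CPM against 76.4 CPM. *Wfdc18* differs by the rule itself, and *Nkd1*, part of the antagonist sum, stood at 692 CPM against 292 CPM. The markers were unevenly spread over the members. After thinning to 3000 UMIs, which kept 329 of the 331, *Nkd1* was detected in 77.8%, *Lrg1* in 43.8% (38.3 to 49.3), *Lcn2* in 33.1% (28.1 to 38.5), *Vim* in 29.5% and *Wif1* in 24.01%. In the *Sox17*/*Msx1* barcodes the shares were 48.4, 2.55, 2.97, 8.92 and 8.70%. *Fabp1*-high enterocytes of the same library were chosen by *Fabp1* at 0.5% of UMIs or more and an antagonist sum under 3 UMIs. Their shares were 1.71, 0.905, 0.704, 0.553 and 0.452%, at a median of 5735 UMIs. The limit on the sum held *Nkd1* low in them by choice, so they are no independent control for it. Of the 329 thinned members, 113 held no UMI of *Lcn2*, *Lrg1* or *Vim*, 108 held 1 of these genes, 82 held 2 and 26 held all 3.

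Most genes were not past 2-fold between members and *Sox17*/*Msx1* barcodes. Of 3095 genes at 50 CPM or more in either class, 129 were higher in the members (4.17%) and 56 lower (1.81%), past 2-fold with an interval off 0, and the median log2 ratio was 0.01. Leaving out the genes of the rule, the 12 highest were *Lrg1*, *Trf*, *Lcn2*, *Ltf*, *Thbs1*, *Slc38a4*, *Plat*, *Muc6*, *Cfi*, *Pnliprp1*, *Wif1* and *Tstd1*. The 12 lowest included *S100g*, *Lgals1*, *Atp4a*, *Defa21*, *Defa20*, *Cited1*, *Myl9*, *Defa22*, *Lyz1*, *Sprr2a3* and *AY761184*.

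**Figure D2:**
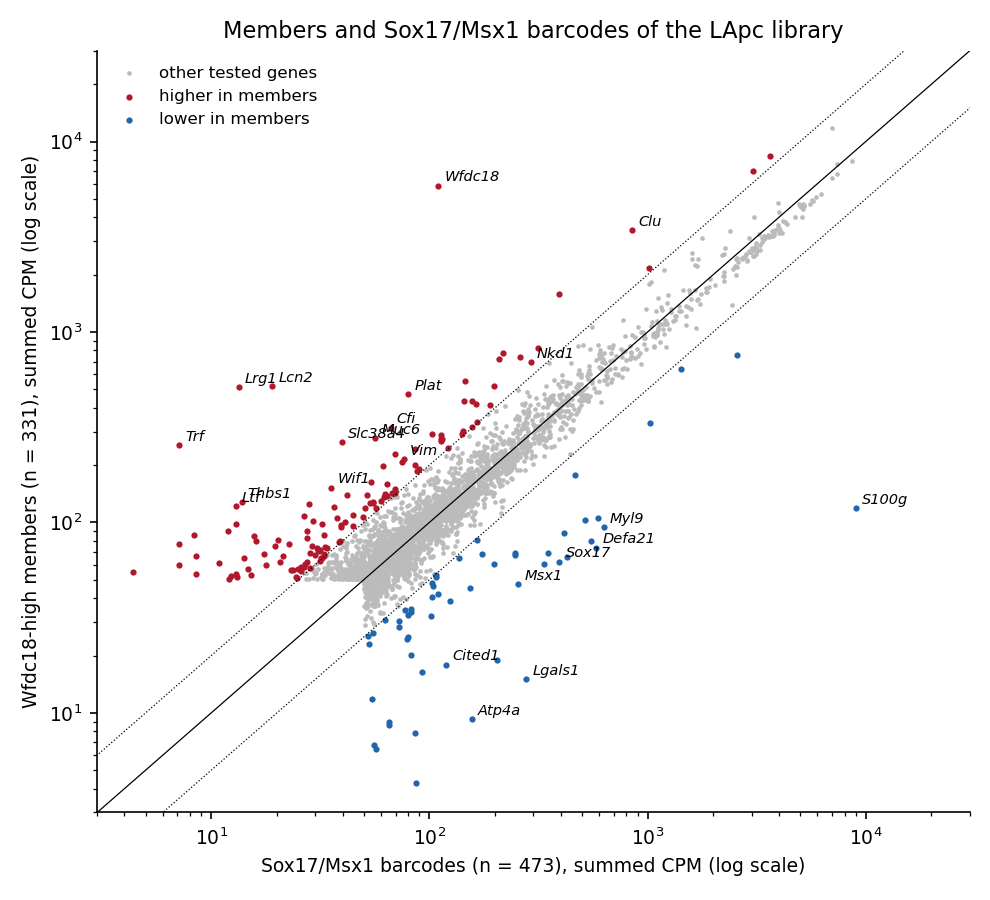
Summed CPM of 3095 genes in the 331 members (y axis) against the 473 *Sox17*/*Msx1* barcodes (x axis), both on log scales, with the line of equality solid and 2-fold lines dotted. Red points are the 129 genes higher in the members and blue points the 56 lower, with *Lrg1*, *Lcn2* and *Trf* far above the diagonal and *S100g*, at 119 against 9019 CPM, far below it.

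Among the higher genes, *Lrg1*, *Trf* and *Lcn2*, which encode secreted proteins, had the largest ratios. *Trf*, the iron carrier transferrin, stood at 255 CPM in the members and 7.10 CPM in the *Sox17*/*Msx1* barcodes, a log2 ratio of 5.17 (4.67 to 5.71). The ratio was 5.27 (4.91 to 5.65) for *Lrg1*, 4.77 (4.46 to 5.09) for *Lcn2*, and 3.24 (2.85 to 3.65) for *Ltf*, the milk iron-binding protein lactotransferrin, at 122 against 12.9 CPM. *Trf* was detected in 30.7% of the thinned members, and 1 member held 89 of its 711 UMIs. The listed iron handling genes, which hold neither *Trf* nor *Ltf*, had 2 measured members, and none was past 2-fold. *Cfi*, the complement protease factor I, stood at 315 against 66.4 CPM and was detected in 59.0% of the members. Of the 20 listed acute phase and antimicrobial genes, 6 reached 50 CPM, and only *Lcn2* and *Lrg1* of these were past 2-fold, with a median log2 ratio over the 6 of 0.31. Among the other members of that list, *S100a8*, *S100a9*, *Saa2* and *Hp* had no UMI in the members. Of the 20 listed chemokines and NF-kB targets 2 reached 50 CPM and neither was past 2-fold, and of 11 *Stat3* partners 4 did, again with none past 2-fold and a median of 0.64.

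Protease and matrix genes formed a further group. *Plat*, tissue plasminogen activator, stood at 473 CPM in the members and 80.1 CPM in the *Sox17*/*Msx1* barcodes (log2 ratio 2.56, 2.40 to 2.73), *Thbs1*, the matrix glycoprotein thrombospondin 1, at 128 against 13.8 CPM, and *Timp1*, a metalloprotease inhibitor, at 74.9 against 19.6 CPM. Of the 18 listed invasion and matrix genes, 6 were measured and 3 were higher (*Plat*, *Timp1* and *Mmp14*). Of the 15 listed mesenchymal genes only *Vim* reached 50 CPM, while *Twist1*, *Snai1*, *Zeb1*, *Zeb2*, *Mmp2* and *Tagln* had no UMI in the members. Of 15 listed epithelial genes, 11 were measured and none was past 2-fold, with a median of 0.37.

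Genes of gastric glands, for which no list was fixed and which were picked after their values were seen, stood in both directions. *Muc6*, the mucin of gastric glands, stood at 277 CPM against 56.3 CPM and was detected in 49.8% of the members. *Gkn3*, a gastrokine, stood at 774 against 218 CPM. *Gkn3* was common in crypt barcodes too, detected in 32.7% of them after thinning, against 45.0% of members and 21.9% of *Sox17*/*Msx1* barcodes. *Atp4a*, the gastric proton pump, stood at 9.32 against 156 CPM, and of the genes under 50 CPM in both classes *Pgc* stood at 7.52 against 27.3 CPM, *Gkn2* at 8.60 against 16.1 CPM and *Tff1* at 25.1 against 20.03 CPM. *Clu*, the secreted chaperone clusterin that marks fetal-like and regenerating epithelium, stood at 3423 CPM against 850 CPM (log2 ratio 2.01, 1.96 to 2.06) and was detected in 92.7% of the members. Of 16 measured genes of the fetal-like and regenerative list, 6 were higher and none lower, with a median of 0.73. Besides *Clu*, the largest of these were *Spp1* (osteopontin, 207 against 74.7 CPM), *Krt23* (a keratin, 421 against 164 CPM) and *Areg* (the *Egf* receptor ligand amphiregulin, 97.1 against 39.2 CPM). *Spp1* was detected in 19.8% of the thinned members. The zymogen and lipase list gave *Pnliprp1* and *Pnliprp2*, which encode relatives of pancreatic lipase, as higher, but 55.6 and 44.0% of their member UMIs lay in 5 barcodes.

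Some Wnt target genes were higher in the members than in the *Sox17*/*Msx1* barcodes, and none of the 6 called here was past 2-fold in the comparison given further on that sets *S100g* low and takes barcodes without *Wfdc18*. Of the 18 listed Wnt feedback inhibitors 7 were measured and 3 were higher: *Dkk3* (64.9 against 14.2 CPM), *Wif1* and the rule gene *Nkd1*. Of 12 measured Wnt target factors and receptors, 3 were higher, all transcription factors: *Sox9* (293 against 102 CPM), *Sp5* (150.5 against 69.3 CPM) and *Prox1* (301 against 142 CPM). *Lgr5*, the stem cell receptor, stood at 48.4 against 15.2 CPM, under the 50 CPM limit, and *Myc* at 41.2 against 54.9 CPM. *Lef1* itself stood at 28.7 CPM (22.7 to 35.7) in the members, 16.3 CPM in the *Sox17*/*Msx1* barcodes and 1.07 CPM in the crypt barcodes, and was detected in 10.9, 5.10 and 0.118% of these after thinning. None of the 4 measured Tcf/Lef factors, Tle corepressors and partners was past 2-fold, with a median of -0.04.

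Among the lower genes *S100g* stood apart. *S100g*, the vitamin D-driven calcium carrier calbindin-D9k of enterocytes, stood at 119 CPM in the members and 9019 CPM in the *Sox17*/*Msx1* barcodes, a log2 ratio of -6.25 (-6.41 to -6.09). It was detected in 14.3% of the thinned members and 63.9% of the others, and 59.5% of its member UMIs lay in 5 barcodes. *Lgals1* (galectin-1) stood at 15.05 against 278 CPM, *Myl9* (a myosin light chain) at 94.2 against 629 CPM and *Cited1* (a transcriptional coregulator) at 17.9 against 120 CPM. Of 8 measured Paneth markers 6 were lower, among them lysozyme (*Lyz1*) at 105 against 592 CPM. Defensin genes share near-identical copies, so the split of reads among them is uncertain. The rule limits *Defa24* in the members alone. With the *Defa24* and *Tff3* limits set on both classes, the log2 ratio was 0.18 for *Defa21*, 0.14 for *Defa20* and 0.30 for *Defa22*.

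Within barcodes that met the antagonist, *Defa24* and *Tff3* limits, the levels of most of these genes followed the *Wfdc18* share. From the 664 such barcodes with no *Wfdc18* UMI to the 138 at 0.48% or more, *Trf* went from 4.35 to 407 CPM, *Lrg1* from 21.9 to 787 CPM, *Plat* from 50.3 to 594 CPM, *Muc6* from 41.0 to 406 CPM and *Clu* from 586 to 4854 CPM. In the bins between, *Trf* stood at 11.5, 23.4, 48.4, 96.9 and 218 CPM, higher in each bin than in the one before. *Lcn2* was less even, at 74.5 CPM without *Wfdc18*, 185 CPM just below the limit, 397 and 334 CPM in the first bins above it and 752 CPM at the top. *Wif1* went from 74.1 to 148 CPM, *Nkd1* from 364 to 798 CPM and *Lef1* from 17.4 to 30.1 CPM. *S100g* ran the other way, at 9685, 2545, 419, 204, 81.9, 50.7 and 199 CPM from the bin without *Wfdc18* to the top one. In the top bin 1 member held 161 of the 218 *S100g* UMIs. *Sox17* stood at 270 CPM without *Wfdc18* and 34.7 CPM at the top. *Vim* did not follow the share evenly, at 173, 159, 141, 128, 140, 222 and 270 CPM over the same bins. The bins differ in number and share 1 library, and the levels are of the same barcodes that were binned.

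**Figure D3:**
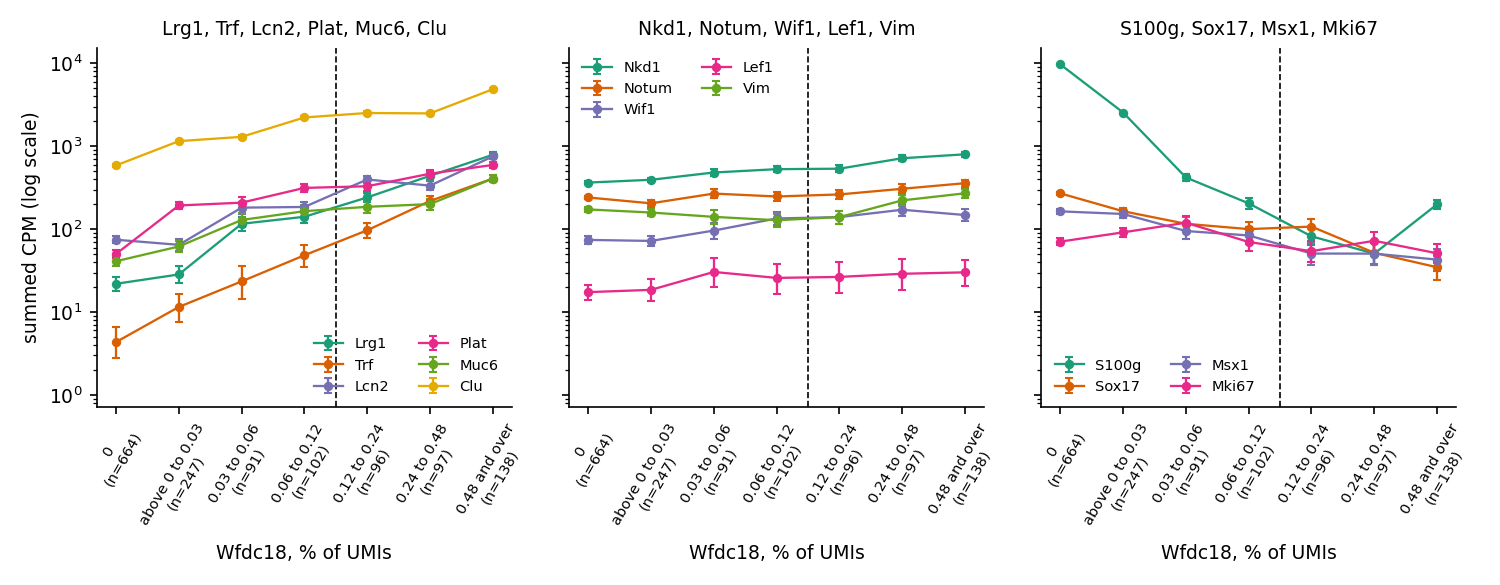
Summed CPM (y axis, log scale) of named genes in 7 bins of the *Wfdc18* share (x axis, with the number of barcodes), with exact 95% counting intervals and the rule's limit dashed. *Trf*, *Lrg1*, *Plat*, *Muc6* and *Clu* were higher toward the right, *S100g* was highest without *Wfdc18*, and *Lef1* stayed between 17.4 and 30.5 CPM.

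*S100g* and *Wfdc18* divided the antagonist-positive barcodes in different ways. *S100g* was under 0.02% of UMIs in 298 of the 331 members (90.0%), and in 938 of the 1435 antagonist-positive barcodes. Of these 938, 298 were members (31.8%) and another 298 had no *Wfdc18* UMI at all. At *S100g* of 0.5% or more, 1 of 254 barcodes was a member (0.394%). This allowed a comparison of the 298 members low in *S100g* with the 298 barcodes low in *S100g* that lacked *Wfdc18*. It was chosen after the values above had been seen. Median depth was 8107 UMIs in these members and 6159.5 in the others, and a count of 0 is easier to reach at lower depth. The part of depth in the differences below was not tested.

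That comparison changed 2 things at once, the *S100g* limit and the comparison class, so each was also made alone. With the *S100g* limit alone, 298 members against 184 *Sox17*/*Msx1* barcodes, 70 genes were higher (2.26%) and 47 lower (1.52%) of 3095. With the class changed alone, 331 members against 664 antagonist-positive barcodes without *Wfdc18*, 125 were higher (4.03%) and 65 lower (2.1%) of 3101. With both, 75 were higher (2.38%) and 100 lower (3.17%) of 3150, and 9 of the 12 highest genes named above were still past 2-fold.

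*Trf* had a log2 ratio of 4.83 under the *S100g* limit alone, 5.87 with the class alone and 5.19 (4.46 to 6.04) with both. With both changes the ratio was 3.24 for *Ltf*, 3.12 for *Slc38a4*, a neutral amino acid transporter, 2.71 for *Plat*, 2.38 for *Gkn3*, 2.20 for *Clu* and 1.92 for *Muc6*. *Lrg1* stood at 540.3 against 53.4 CPM, a log2 ratio of 3.34 (3.06 to 3.63), lower than 4.24 with the *S100g* limit alone and 4.55 with the class alone. *Lcn2*, at 505 against 174 CPM, had a ratio of 1.54 (1.37 to 1.71), against 3.52 and 2.80 with each change alone.

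The ratios of the Wnt genes were smaller with both changes than with either alone. *Wif1* stood at 160 CPM in the members and 154 CPM in the others, a log2 ratio of 0.05 (-0.17 to 0.27), where each change alone left 1.19 and 1.04. The ratio was 0.36 (-0.02 to 0.74) for *Dkk3*, 0.19 (-0.04 to 0.42) for *Sp5*, 0.02 (-0.14 to 0.17) for *Prox1*, 0.83 (0.64 to 1.02) for *Sox9*, 0.16 for *Nkd1* and 0.12 (-0.28 to 0.53) for *Lgr5*. *Lef1* stood at 30.3 and 29.6 CPM and *Mki67* at 57.5 and 54.8 CPM. *Vim* stood at 225 CPM in the members and 348 CPM in the others (log2 ratio -0.63, -0.79 to -0.46), and at 225 against 146 CPM with the *S100g* limit alone.

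Transcripts of other cells moved with the lower genes. Of the 298 barcodes without *Wfdc18*, 27 were past the limits on T and NK, enteroendocrine or enterocyte transcripts, against 6 of the 298 members. Without these barcodes, 69 genes were higher (2.2%) and 63 lower (2.0%) of 3143. *Chgb*, an enteroendocrine granule protein, went from a log2 ratio of -3.24 to -1.44, the hormone *Gip* from -1.93 to -0.05, the apolipoprotein *Apoa4* from -1.66 to -0.15 and *Reg4*, a secretory lectin, from -1.44 to 0.08. *Atp4a*, at -4.59 and -4.71, and *Lgals1*, at -2.80 and -2.93, stayed past 2-fold, and *Trf* stood at 5.17, *Lrg1* at 3.23 and *Lcn2* at 1.40. The part of such transcripts in the remaining differences was not tested.

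**Figure D4:**
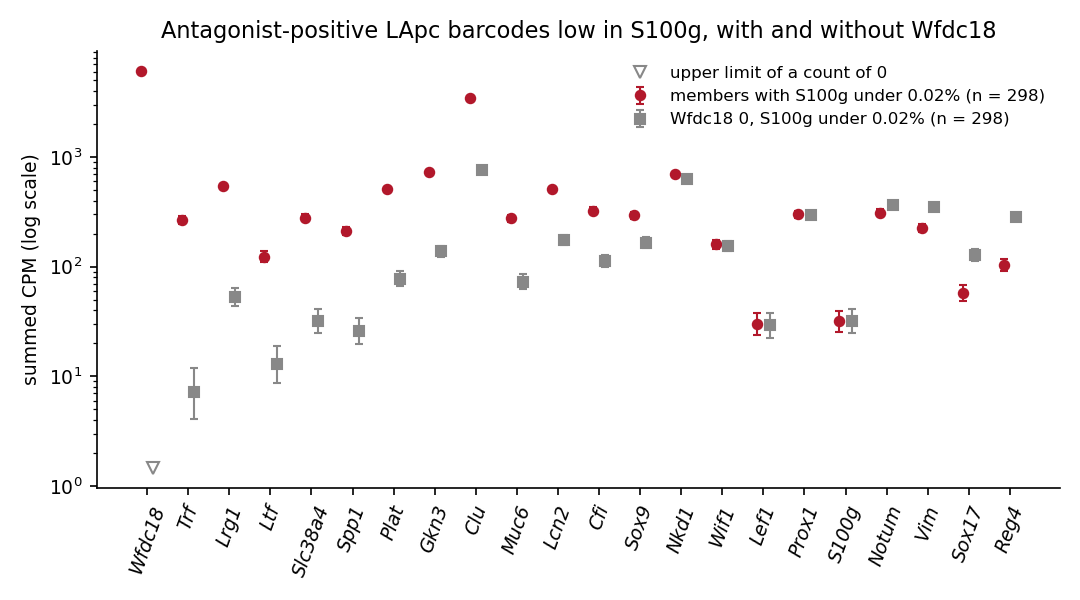
Summed CPM (y axis, log scale) of 22 genes (x axis) in 298 members with *S100g* under 0.02% of UMIs (red circles) and 298 antagonist-positive barcodes with *S100g* under 0.02% and no *Wfdc18* UMI (grey squares), with exact 95% counting intervals; the open triangle is the upper limit of a count of 0. *Trf*, *Lrg1*, *Ltf*, *Plat* and *Clu* differed between the classes, and *Wif1*, *Lef1*, *Prox1* and *Nkd1* had close levels in both.

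*Vim* was carried by few barcodes in both classes. Of the 601 *Vim* UMIs in the members, 506 lay in 72 members (21.8%) with 3 or more. Of the 914 *Vim* UMIs in the 664 barcodes without *Wfdc18*, 827 lay in 87 barcodes (13.1%) with 3 or more. These 87 barcodes held *Wif1* at 191 CPM, *Nkd1* at 843 CPM and *Notum* at 599.6 CPM, but *Lrg1* at 6.81 CPM and *Trf* at 5.11 CPM. The 72 *Vim*-positive members held *Lrg1* at 677 CPM, *Trf* at 471 CPM and *Wfdc18* at 7607 CPM. The 259 members with under 3 *Vim* UMIs held *Lrg1* at 472 CPM and *Lcn2* at 525 CPM, close to the 489.9 CPM of *Lcn2* in the *Vim*-positive ones.

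The crypt barcodes were 867 LApc barcodes with 2 or more summed UMIs of *Lgr5*, *Ascl2* and *Smoc2*, none of *Sox17*, *Msx1*, *Notum* and *Wif1*, under 3 of the antagonist sum, and the same limits on *Wfdc18*, *Defa24* and *Tff3*. Against them, of 3157 genes, 516 were higher in the members (16.3%) and 189 lower (5.99%), with a median log2 ratio of 0.26. Ribosomal protein genes took 34.1% of the UMIs in the crypt barcodes and 23.6% in the members, and scaling by the trimmed mean of M values (TMM) moved all ratios down by 0.24. The split then became 377 higher and 275 lower, and with mitochondrial and ribosomal protein UMIs left out of the totals 474 higher and 450 lower. Genes absent or nearly absent in crypts led the members. *Spp1* had 0 UMIs in the crypt barcodes and was 451-fold higher with that 0 set to 3 counts. *Wif1* also had 0 UMIs there, which the choice of the crypt class fixed. *Tesc*, a calcium-binding protein, stood at 198 against 0.307 CPM, from 2 UMIs (log2 ratio 9.34, 7.48 to 12.38). *Plat* stood at 473 against 1.84 CPM, *Muc6* at 277 against 1.38 CPM and *Lrg1* at 514 against 3.22 CPM. *Clu* stood at 3423 against 23.8 CPM and *Lcn2* at 518 against 4.60 CPM.

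By role, 6 of 13 measured Wnt target factors and receptors were higher than in crypts, and 5 of 7 Wnt feedback inhibitors, of which *Nkd1*, *Notum* and *Wif1* were used to choose the classes. Of 6 invasion and matrix genes 5 were higher. All 15 measured fetal-like and regenerative genes were higher (median log2 ratio 4.84), with *Ly6d* at 322 against 6.75 CPM, although 42.7% of the *Ly6d* UMIs lay in 5 members. Of 14 measured hypoxia and glycolysis genes 11 were higher (median 1.88), with the lactate exporter *Slc16a3* at 206 against 7.82 CPM and the oxygen sensor *Egln3* at 86.0 against 5.52 CPM. The 5 measured Bmp and Tgf-beta genes were all higher (median 2.77), with *Id3* at 640.0 against 79.9 CPM. The cell cycle inhibitors *Cdkn1c*, at 149 against 5.22 CPM, and *Cdkn1a*, at 130.1 against 41.4 CPM, were higher. The last 3 groups did not set the members apart from the *Sox17*/*Msx1* barcodes. Against these, none of the 14 measured hypoxia and glycolysis genes was past 2-fold (median 0.24). Nor was any of the 5 Bmp and Tgf-beta genes (median 0.30) or of the 2 cell cycle inhibitors (median 0.11).

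The 12 genes lowest in the members against crypts included *Cps1* (carbamoyl phosphate synthase, 29.0 against 596 CPM), *Vdr* (the vitamin D receptor, 11.1 against 165 CPM), *Clca3b*, *Dmbt1* (a secreted scavenger receptor, 67.7 against 875 CPM), *Gas6*, *Otc* (ornithine transcarbamylase, 11.5 against 131 CPM), *Fgfbp1*, *Nlrp6*, *Aqp1*, *Cldn15*, *Aldh1b1* and *Pdcd4*. The gut identity factor *Cdx1* stood at 36.5 against 194 CPM. The factors *Cdx2* (61.3 against 132 CPM) and *Hnf4a* (50.2 against 163 CPM) were lower, also past 2-fold. Of 9 measured crypt stem cell markers, 3 were higher (*Prox1*, 301 against 8.44 CPM, *Cd24a*, 848 against 211 CPM, and *Sox9*, 293 against 125 CPM), and 3 were lower (*Slc12a2*, 119 against 563 CPM, and *Ascl2* and *Smoc2*, which chose the crypts). Of the 5 measured MHC class II genes, 4 were lower, among them *H2-Ab1* at 107 against 220 CPM. Of 6 measured acute phase and antimicrobial genes, *Lcn2* and *Lrg1* were higher and the other 4 lower, with the epithelial antibody transporter *Pigr* at 288 against 1308 CPM and the lectin *Reg3b* at 1564 against 4570 CPM.

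Fewer members than *Sox17*/*Msx1* or crypt barcodes carried cell cycle transcripts. After thinning to 3000 UMIs, 27.1% of the members (22.3 to 32.2) held 2 or more UMIs over 10 mitotic genes, against 44.8% (40.2 to 49.4) of the *Sox17*/*Msx1* barcodes, 47.1% (43.7 to 50.5) of the crypt barcodes and 3.82% of *Fabp1*-high enterocytes. The difference was -17.7 percentage points (-24.4 to -10.9) from the *Sox17*/*Msx1* barcodes and -20.1 points (-25.9 to -13.9) from the crypts. Unthinned, 41.1% of members, 63.8% of *Sox17*/*Msx1* barcodes and 59.6% of crypt barcodes passed, with depths of 8066, 9595 and 7026 UMIs (medians). *Mki67*, the proliferation marker, was detected in 7.90, 17.8 and 24.2% after thinning. Of 14 measured cell cycle genes none was past 2-fold against the *Sox17*/*Msx1* barcodes, with a median of -0.38, and of 10 *Myc* and ribosome biogenesis genes none was, with a median of -0.40. Thinned to 2000 UMIs, the difference from the *Sox17*/*Msx1* barcodes was -10.1 points. The size of the *Mki67* difference varied with the comparison. *Mki67* stood at 58.4 CPM in the members and 70.7 CPM in antagonist-positive barcodes without *Wfdc18* (log2 ratio -0.28, -0.55 to -0.0068). With the *S100g* limit alone, it stood at 57.5 CPM against 96.5 CPM in the *Sox17*/*Msx1* barcodes (log2 ratio -0.75, -1.07 to -0.42). With both changes, it stood at 57.5 and 54.8 CPM (log2 ratio 0.07, -0.29 to 0.44).

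Among the members, the 89 that held 2 or more mitotic UMIs after thinning differed from the 176 with none. *Lcn2* stood at 221 CPM in the first and 600.4 CPM in the second, a log2 ratio of -1.44 (-1.87 to -1.04). *Clu* stood at 1865 and 4873 CPM, *Cdkn1c* at 97.4 and 277 CPM and *Ly6d*, a surface protein of stratified and fetal-like epithelium, at 59.9 and 360 CPM. *Spp1* went the other way, at 262 and 110 CPM, and *Wif1* stood at 157 and 153 CPM, a ratio of 0.04 (-0.54 to 0.59).

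Clustering the members alone, without the rule genes, gave 4 sub-clusters of 125, 99, 60 and 47 barcodes, whose resolution was chosen after seeing the data and which are described by their leading genes and left unnamed. The leading genes of each were those the clustering itself used. The first was led by *Gip*, *Npy*, *Sprr1a*, *Krt17* and *Ly6d* and held the most *Lcn2*, at 1065 CPM, *Lrg1*, at 797 CPM, *Plat*, at 809 CPM, and *Wif1*, at 295 CPM. In that sub-cluster 3 barcodes held 92.9% of the *Gip* UMIs, 73.3% of those of *Sprr1a* and 68.1% of those of *Krt17*. *Gip*, the enteroendocrine hormone, stood at 594 CPM over all members and at 112 CPM without the 7 past the limits on other cells' transcripts. The second was led by mitotic genes, with *Mki67* at 134 CPM. The third was led by *Lyz1*, *Tff1*, *Spink4* and *Gkn3* and held *Lcn2* at 42.8 CPM and *Gkn3* at 1949 CPM, and 3 barcodes held 86.6% of its *Lyz1* UMIs, 78.3% of those of *Tff1* and 77.1% of those of *Spink4*. The fourth was led by interferon-inducible and antigen presentation genes, with Iigp1 at 265 CPM, Gbp2 at 217 CPM and *Cd74*, the MHC class II invariant chain, at 2228 CPM against 139 to 317 CPM in the others. *Lef1* ranged from 25.7 to 36.7 CPM and *Wfdc18* from 4384 to 8104 CPM over the 4.

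The 39 members with 3 or more UMIs of *Sox17* and *Msx1* were set beside the other members. *Lrg1* stood at 377 CPM in these 39, 560.1 CPM in the 82 members with 1 or 2 such UMIs and 529 CPM in the 210 with none, against 13.4 CPM in the *Sox17*/*Msx1* barcodes. *Muc6* stood at 268, 324 and 260.1 CPM and *S100g* at 85.1, 303 and 53.4 CPM. *Lcn2* stood at 212 CPM in the 39 against 588 and 564 CPM in the others and 19.0 CPM in the *Sox17*/*Msx1* barcodes. *Vim*, at 73.0 CPM against 222 and 247 CPM, was at the 76.4 CPM of the *Sox17*/*Msx1* barcodes in the 39. Of the 39, 2 were among the highest doublet scores.

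The 41 LApcL barcodes that met the same rule shared some of these transcripts with the members and lacked others. Their *Wfdc18* share had a median of 0.186% of UMIs and a highest value of 0.629%, and 29 of them (70.7%) held 3 or more UMIs of *Sox17* and *Msx1*, against 39 of the 331 members (11.8%). *Lrg1* had 0 UMIs in the 41, and with that 0 set to 3 counts it was 59.6-fold higher in the members. The low end of its exact interval was a log2 ratio of 5.60. *Lcn2* had 2 UMIs (5.76 against 518 CPM, log2 ratio 6.49, 4.64 to 9.54), *Trf* 1, *Vim* 1 and *Wif1* 3. *Plat* stood at 60.4 against 473 CPM in the members. *Clu* was higher in the LApcL barcodes, at 9330 against 3423 CPM, as was *Ltf*, at 518 against 122 CPM, and *Pgc*, the gastric zymogen progastricsin, at 199 against 7.52 CPM. Levels were close for *S100a6* (7102 against 7015 CPM), *Gkn3* (739.6 against 774 CPM), *Axin2* (158 against 152 CPM) and *Dkk3* (71.9 against 64.9 CPM). *Lef1* had 6 UMIs there, 17.3 CPM (6.34 to 37.6). The 9600 *Sox17*/*Msx1* barcodes of LApcL held *Lcn2* at 0.416 CPM, *Lrg1* at 0.376 CPM, *Vim* at 1.66 CPM and *Wif1* at 0.608 CPM, so these markers were near 0 over its adenoma barcodes at large, while the *Sox17*/*Msx1* barcodes of LApc held 19.0, 13.4, 76.4 and 35.5 CPM.

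**Figure D5:**
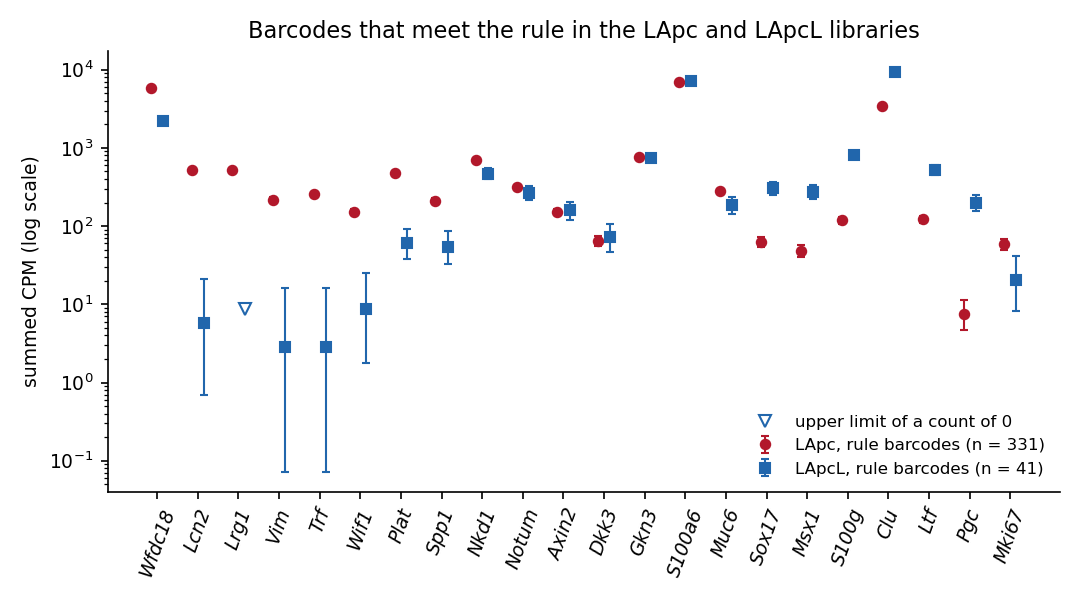
Summed CPM (y axis, log scale) of 22 genes (x axis) in barcodes that met the rule in the LApc library (331, red circles) and the LApcL library (41, blue squares), with exact 95% counting intervals; the open triangle is the upper limit of a count of 0. *Lcn2*, *Lrg1*, *Vim*, *Trf* and *Wif1* had 0 to 3 UMIs in LApcL, *Clu*, *Ltf* and *Pgc* were higher there, and *Axin2*, *Dkk3*, *Gkn3* and *S100a6* were close.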

How the data were processed

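The libraries were prepared with a Chromium Single-Cell 3′ kit (v2 or v3, not given per library in the sources used here) and sequenced on a NovaSeq. The authors mapped reads to mm10 with Cell Ranger 2.1.1, per the submitters' processing notes, and deposited filtered matrices of raw UMI counts per gene and barcode, 1 for each of 3 libraries. The WT library summed to 140181087 counts, the LApc library to 79696291 and the LApcL library to 191509615, with medians of 9984, 6292 and 10478.5 UMIs per kept barcode.

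From these counts, barcodes were kept at 500 or more genes and at most 20% mitochondrial UMIs. The members and lists were chosen with earlier results of these data known. UMIs were summed per class and scaled to CPM. Levels have exact Poisson intervals, shares exact Clopper-Pearson intervals and log2 ratios exact conditional binomial intervals, all at 95%, and a count of 0 was set to a limit of 3 counts over the class. Cells are not replicates, so no test was made across them. Genes at 50 CPM or more in either class were compared, and higher or lower means past 2-fold with the interval off 0. Named genes were the 12 highest and 12 lowest at 100 CPM or more, without rule, mitochondrial, ribosomal protein, Gm and Rik genes, plus up to 4 called genes per list and fixed markers, a few of which are not reported here. Genes named for their level in the cell-cycle, *S100g*-low, sub-cluster and LApcL comparisons were chosen after their values were seen. Doublets were scored with Scrublet in Scanpy 1.11.5 at 0.8% per 1000 barcodes and kept in the main values. Members were clustered with leidenalg 0.10.2. Python 3.11.15, NumPy 2.4.6 and SciPy 1.17.1 were used. Intervals and calls were run on simulated Poisson sums with known differences. That is the counting model the intervals assume, so the run could not check the effect of uneven spread among barcodes. Promoters came from RefSeq (GRCm38.p6) and gene positions from GENCODE vM21.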

Additional observations from a re-analysis of the deposited data

How the results depend on the processing

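No paired analysis was possible because each genotype has 1 library, and for the same reason no replicate could be left out. Of the 88 summary values recomputed, 77 moved by less than 1.5 times or than their interval. Counts of members and genes could only be marked as moved or not. Only the differences in mitotic share could be marked as reversed, and none was. Of the single-gene ratios, 1824 were marked as unmoved, 372 as moved and 18 as reversed. Unmoved means within the main interval, or not reversed where a class had a count of 0. A reversal was marked only where the main interval lay off 0. The number of members was 433 at a *Wfdc18* limit of 0.06% and 235 at 0.24%. Without mitochondrial and ribosomal protein UMIs in the totals, 88 genes were lower than in the *Sox17*/*Msx1* barcodes and 450 lower than in crypts. With no CPM limit, 630 genes were higher and 472 lower than in the *Sox17*/*Msx1* barcodes, and 2145 higher and 914 lower than in crypts, because more genes entered. Thinned to 2000 UMIs, the mitotic share differed by -10.1 points from the *Sox17*/*Msx1* barcodes, and the cause was not tested.

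With the *Defa24* and *Tff3* limits on both classes, the log2 ratio turned to 0.18 for *Defa21*, 0.14 for *Defa20*, 0.30 for *Defa22*, 0.15 for *AY761184* and 0.14 for *Defa24*, since those limits remove the Paneth transcripts from the other class. Alternatives that set *S100g* low on both sides or take antagonist-positive barcodes without *Wfdc18* as the comparison class were chosen after seeing the data. So was the alternative that leaves out barcodes past the limits on transcripts of other cells. Leaving out those barcodes turned *Cck* against crypts to 0.034. *S100g* low alone gave 70 higher genes, and the other class alone turned *Pnliprp2* to -1.03. Both changes together gave 75 higher and 100 lower genes and turned *Pnliprp1* to -0.29, *Vim* to -0.63, *Pnliprp2* to -2.23, *Myc* to 0.0087 and *Mki67* to 0.070. With those barcodes also left out, 69 genes were higher and the ratio was -0.30 for *Pnliprp1*, -0.68 for *Vim*, -2.25 for *Pnliprp2*, 0.49 for *Sprr2a3*, -0.0017 for *Prox1* and 0.062 for *Mki67*. The cause of these moves was not tested. The LApcL class is limited by its 41 barcodes, and a count of 0 in them allows up to 8.63 CPM.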

Other observations

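Some barcodes left out for few genes or many mitochondrial UMIs also reached the *Wfdc18* limit. In LApc 7 of 2350 left-out barcodes did so, a share of 0.298% (0.1198 to 0.613), with a median of 2616 UMIs, and 3 of them had the antagonist sum as well. In WT 0 of 62 and in LApcL 0 of 416 did.

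Among LApc barcodes at the *Wfdc18* limit that were not members, 47 had an antagonist sum under 3, and 21 of those had a sum of 0.

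Further gene groups differed between the members and the crypt barcodes. All 4 measured genes of the *Stat3* list were higher (median log2 ratio 1.86), with *Junb*, an immediate early factor, at 2.75 and *Stat3* itself at 1.56. Of 5 measured genes of the *Egf* receptor list 4 were higher and 1 lower, with *Etv5* at 4.27 and the ligand betacellulin (*Btc*) at 2.81. *Il33*, an alarmin cytokine, was the 1 higher gene of 2 measured in the chemokine list, at 5.33. Against the *Sox17*/*Msx1* barcodes, none of the 4 measured *Stat3* list genes or the 2 chemokine list genes was past 2-fold. Of 4 measured *Egf* receptor list genes 2 were higher there. The *Stat3* list summed to 609 CPM in the members, 426 CPM in the *Sox17*/*Msx1* barcodes and 138 CPM in the crypt barcodes.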
